A study of Mus musculus with 2 samples.

Results

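The cytosolic ribosomal protein genes encode the protein parts of the ribosome that translates nuclear messenger RNAs in the cytoplasm. They were taken as the protein-coding genes of the GENCODE M21 annotation of the mouse genome (GRCm38, mm10) with a symbol of Rpl or Rps, a number and at most 1 letter (a, x, y or l), together with Rplp0, Rplp1, Rplp2 and Rpsa. This symbol rule gave 80 members of 21853 protein-coding genes, 49 of the large and 31 of the small subunit, with 219 annotated transcription start sites (TSSs). Of the 17372 peaks in the main list, 96 had a member as the gene with the nearest protein-coding TSS within 100 kb. Nearness does not show that a peak acts on the gene.

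EP300, a histone acetyltransferase and coactivator, was mapped by ChIP-seq (sequencing of immunoprecipitated chromatin) in heart tissue of newborn mice of strain B6NCrl, aged 0 days, with no treatment or genetic change named in the labels. The 2 samples, replicates 1 and 2, form 1 group, so no condition was compared. Both carry the same biosample and donor labels, and the sex was not recorded, so the spread between them may be technical. Peak lists were deposited for replicate 1, replicate 2 and the pooled reads, with 300000 peaks each, and for 2 lists filtered by the irreproducible discovery rate (IDR), an optimal list of 17372 peaks and a conservative list of 15628. The optimal list is the main list here. The files hold no read counts, so the depth of each library is unknown.

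Each ribosome has a large subunit, which joins amino acids, and a small subunit, which reads the messenger RNA. Their proteins are needed in every growing cell in near-equal amounts, and many of their messenger RNAs begin with a run of pyrimidines, the terminal oligopyrimidine (TOP) start, through which mTOR controls their translation. EP300 is recruited to enhancers and active promoters by transcription factors and acetylates histones there, and in heart muscle it is best known at enhancers of muscle genes.

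The sequences below show what lay under the strongest calls, under the strongest call at a promoter shared with a divergent gene, under calls of members that missed the optimal list, and under the call at the muscle paralogue Rpl3l, which was added after its values were seen. They come from GRCm38, run 5′ to 3′ on the strand of the gene, and stop where an annotated UTR begins. Only UTRs were cut, so a line may hold coding bases. Where the summit itself lay in a UTR, 30 bases around it are shown. Capitals mark matches, on either strand, to 12 motifs listed further on. The Rpl32 line is the whole called interval (chr6:115808754-115809003, minus strand), which ended upstream of the annotated start. The Rps19 line (chr7:24884588-24884617, plus strand) and the Rpl21 line (chr5:146833005-146833034, plus strand) lie in the annotated first exon. The other lines are Rpl26 (chr11:68901333-68901582, plus strand), Rpl4 (chr9:64173116-64173365, plus strand), Rpl22 (chr4:152325603-152325852, plus strand), Rps20 (chr4:3835646-3835675, minus strand), Rps9 (chr7:3704168-3704197, plus strand) and Rpl3l (chr17:24732405-24732654, plus strand).
Rpl32: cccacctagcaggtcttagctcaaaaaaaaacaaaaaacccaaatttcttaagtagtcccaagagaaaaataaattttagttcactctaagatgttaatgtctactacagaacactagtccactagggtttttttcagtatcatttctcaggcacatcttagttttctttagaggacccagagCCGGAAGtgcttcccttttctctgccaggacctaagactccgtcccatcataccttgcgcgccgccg
Rps19: gcgagactcgacgcccgacttgtgcgcccg
Rpl21: gggagcgtgtcctcacggcgtctccaggtt
Rpl26: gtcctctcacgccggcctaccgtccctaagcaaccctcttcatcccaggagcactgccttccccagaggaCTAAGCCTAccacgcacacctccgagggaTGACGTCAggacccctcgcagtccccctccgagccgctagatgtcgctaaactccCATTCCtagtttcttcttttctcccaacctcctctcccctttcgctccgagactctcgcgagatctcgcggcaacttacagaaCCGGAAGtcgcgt
Rpl4: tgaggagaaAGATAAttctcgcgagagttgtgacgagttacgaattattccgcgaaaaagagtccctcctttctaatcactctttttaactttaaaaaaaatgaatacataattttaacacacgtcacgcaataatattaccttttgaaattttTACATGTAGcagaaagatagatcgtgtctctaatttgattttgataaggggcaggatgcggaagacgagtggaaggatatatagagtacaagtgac
Rpl22: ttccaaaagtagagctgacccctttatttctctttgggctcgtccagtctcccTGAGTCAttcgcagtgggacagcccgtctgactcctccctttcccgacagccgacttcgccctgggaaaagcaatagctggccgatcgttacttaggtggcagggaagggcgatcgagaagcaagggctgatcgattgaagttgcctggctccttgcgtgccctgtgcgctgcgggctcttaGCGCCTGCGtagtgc
Rps20: ggcggttcctgttccgggtcacaaagcacc
Rps9: ggtggctggaagttacaacacggttgtgga
Rpl3l: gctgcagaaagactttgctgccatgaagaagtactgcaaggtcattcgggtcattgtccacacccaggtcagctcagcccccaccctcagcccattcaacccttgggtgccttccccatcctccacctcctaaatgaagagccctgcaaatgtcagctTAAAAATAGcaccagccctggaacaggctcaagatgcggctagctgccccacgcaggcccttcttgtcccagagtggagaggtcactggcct
The capitals in Rpl32 are an ETS match (CCGGAAG), and Rpl26 has another near its end, after matches for CRE (TGACGTCA), TEAD and MEF2. In Rpl22 they are AP-1 and NRF1 matches, in Rpl4 GATA and MEF2 matches and in Rpl3l a MEF2 match. The MEF2 letters used, CTANNNNTA, leave the middle bases free. These were all A or T in Rpl3l but not in Rpl4 or Rpl26. No match fell in the 30 bases of Rps19, Rpl21, Rps20 or Rps9. GC content was 42.4% in the whole Rpl32 interval, 35.2% in the part of the Rpl4 call shown and 59.6% in the part of the Rpl26 call shown.

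The first question was how many members carried EP300 at their promoters. In the optimal list 60 of the 80 members, 75%, had a summit within 1 kb of one of their own TSSs, called a promoter peak here, where 21.3% of all protein-coding genes had one. In the conservative list 56 members had one against 18.7% of all genes, and in either of the IDR lists 65 against 24.2%. By nearest-gene assignment 58 members, 72.5%, had a peak, beside 31.9% of all genes. The members were chosen with results of these data known, so these shares are descriptions and no test of the difference was made. The tissue holds many cell types, and a peak in fewer cells cannot be told apart from a weaker one in all of them.

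Promoter peaks of the members were also high in the list. Each peak carries a signal value, the authors' height above control, which ranks peaks within a list only. The strongest promoter peak of a member had a median signal of 54.3 (quartiles 33.2 and 74.2), beside 36.6 (27.3 and 50.6) for the 4660 genes with such a peak. As percentiles of the optimal list the medians were 85.3 and 63.6. Among the 1000 strongest peaks, 14 members (17.5%) had one at their promoter, beside 389 of all genes (1.78%). A deposited −log10 q of at least 2 was reached by 53 of the 60 members and by 72.7% of all genes with a promoter peak.

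**Figure D1:**
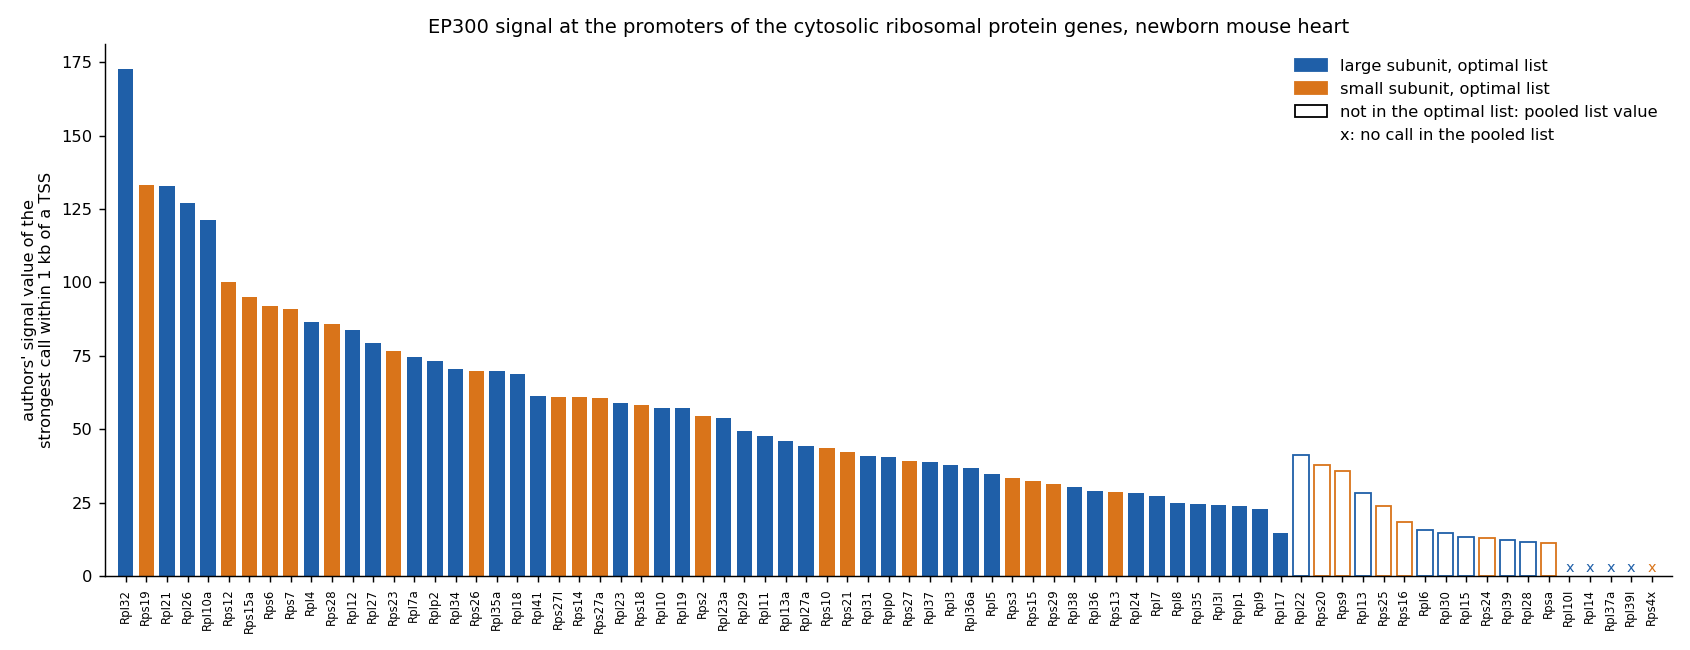
Authors' signal value (y axis) of the strongest call within 1 kb of a TSS for 75 of the 80 members (x axis), large subunit in blue and small subunit in orange; filled bars are in the optimal list, open bars give the pooled value of members outside it, and x marks members with no pooled call. Signal fell from 173 at Rpl32 to 14.8 at Rpl17, and 4 of the members shown outside the optimal list had pooled values above 28.

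Both subunits were covered at close shares. Of the large-subunit genes 37 of 49 (75.5%) had a promoter peak, with a median signal of 47.8, and of the small-subunit genes 23 of 31 (74.2%), with a median of 60.5. No ranking of the subunits was tested.

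The strongest call of the family stood at Rpl32, a large-subunit protein. Its signal was 173, rank 56 of the optimal list, and it was 103 (rank 45) in replicate 1 and 66.1 (rank 95) in replicate 2. The summit lay 117 bp upstream of the TSS, in intergenic sequence, and the call was 250 bp wide where the median of the list was 496 bp. Rpl32 was thus among the first 100 peaks in each of these lists.

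Rps19, a small-subunit protein often mutated in Diamond-Blackfan anaemia, followed at 133 (rank 139). It was at 96.4 in replicate 1 (rank 58) and at 40.8 in replicate 2 (rank 561). Rpl21 was at 133 in the optimal list (rank 142), with 88.5 (rank 81) and 42.0 (rank 513) in the replicates. Both stood higher in replicate 1 than in replicate 2 by rank. Their calls, with that of Rpl32, were the only calls under 300 bp among the 60 strongest promoter peaks.

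Rpl26, a large-subunit protein near the exit of the growing chain, and Rpl10a came next. Rpl26 was at 127 (rank 161), with 64.2 (rank 261) in replicate 1 and 59.8 (rank 136) in replicate 2. Rpl10a was at 121 (rank 190), with 64.7 (rank 253) and 55.6 (rank 178). Their summits lay 23 and 17 bp upstream of the TSS.

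The next 4 were all of the small subunit. Rps12 reached 100.035 (rank 374), and it stood at rank 688 in replicate 1 and 160 in replicate 2 (signals 49.9 and 56.9). Rps15a had 95.1, with 49.9 and 48.3 in the replicates. Rps6, whose protein is phosphorylated downstream of mTOR, had 92.0, with 57.7 and 34.7. Rps7 had 90.9, with 52.8 and 35.5. All 4 were within the first 1000 peaks of both replicates.

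Rpl4, Rps28 and Rpl12 complete the 12 strongest, and each shares its promoter with a gene on the other strand. Rpl4, divergent from Zwilch, had 86.5 (48.8 in replicate 1 and 31.0 in replicate 2). Rps28, divergent from Ndufa7, had 86.0 (51.1 and 30.6). Rpl12, divergent from Lrsam1, had 83.7 (52.8 and 31.2). At such promoters the call cannot be given to one gene: the Rpl12 peaks, like those of Rps27a (Clhc1) and Rps18 (Vps52), were nearer to a TSS of the neighbour, and the Rps10 peak was nearest to the TSS of the readthrough gene RPS10-NUDT3. These 4 members therefore had a promoter peak but no assigned peak.

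In all, 13 members had a protein-coding TSS on the other strand within 1 kb upstream or up to 100 bp downstream of their own. Promoter peaks stood at 11 of them, with a median signal of 68.9, and at 49 of the other 67, with a median of 46.0. Of 29 members with small nucleolar RNA genes in their introns, which guide the modification of ribosomal RNA, 21 had a promoter peak (median 54.6), as had 39 of 51 without (median 49.5). Neither split was tested.

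Among the remaining large-subunit genes, with Rplp2 given below, Rpl27 (79.4), Rpl7a (74.7), Rpl34 (70.4), Rpl35a (69.8), Rpl18 (68.9) and Rpl41 (61.3) had the highest signals, all above 60. By rank in replicate 1 and replicate 2, Rpl27 stood at 942 and 2587, and Rpl7a at 903 and 5402. Rpl34 was at 635 and 2255. Rpl35a was at 2190 and 881, Rpl18 at 906 and 3435 and Rpl41 at 2854 and 677. So Rpl35a and Rpl41 ranked higher in replicate 2, and the other 4 in replicate 1.

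Rpl23 (59.0, ranks 2681 and 2525), Rpl10 (57.3, ranks 1937 and 2668) and Rpl19 (57.2, ranks 2272 and 5265) were close to each other. Rpl23a had 54.0 (ranks 6161 and 3074) and Rpl29 49.5 (ranks 4170 and 2094). Rpl11, which binds Mdm2 when ribosome assembly is disturbed, had 47.8, and its rank was 2346 in replicate 1 and 20317 in replicate 2. Rpl13a had the reverse order, with 46.0 and ranks 8775 and 1295. Rpl5, the partner of Rpl11, had 34.7 with nearly equal ranks, 8872 and 8839.

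Lower in the list came Rpl27a (44.5), Rpl31 (40.9), Rpl37 (38.8), Rpl3 (37.7), Rpl36a (36.8) and Rpl38 (30.3), a protein known for its part in the translation of Hox messenger RNAs. Their ranks in replicates 1 and 2 were 3034 and 24558 for Rpl27a, 6046 and 15020 for Rpl31, and 8357 and 23074 for Rpl37. For Rpl3 they were 15134 and 2453, for Rpl36a 12499 and 10971, and for Rpl38 14305 and 20541. Only Rpl3 and Rpl36a of these 6 ranked higher in replicate 2. Rpl36 had 28.9, Rpl24 28.4, Rpl7 27.4, Rpl8 24.9 and Rpl35 24.4.

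The weakest promoter peaks were at Rpl17 (14.8, rank 15372), Rpl9 (22.9, rank 12936) and Rplp1 (23.9, rank 12409). Rpl17 ranked 13286 in replicate 1 and 38635 in replicate 2. Rpl9, divergent from Lias, ranked 8941 in replicate 1 and had no call in replicate 2. Rplp1 ranked 12741 and 149750. All 3 thus stood higher in replicate 1. The weakest peak of the whole optimal list had a signal of 6.91.

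The P stalk, the flexible arm of the large subunit that calls in translation factors, has 3 proteins, and they differed. Rplp2 had 73.1, with 52.7 (rank 558) in replicate 1 and 26.8 (rank 2029) in replicate 2. Rplp0, the base of the stalk, had 40.4, with 33.1 (rank 2362) and 7.25 (rank 49539). Rplp1 is given above. Of the 3, only Rplp2 was among the leading peaks of both replicates, that is among as many of the strongest peaks as the optimal list holds.

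In the small subunit, Rps23 (76.6), Rps26 (69.8), Rps27l (61.2), Rps14 (61.0), Rps27a (60.5) and Rps18 (58.1) were also above the family median. Rps27a encodes ubiquitin fused to a ribosomal protein. Rps23 ranked 1539 and 850 in the replicates, and Rps26 1768 and 982. Rps14 ranked 3376 and 1654, Rps27a 4236 and 1301 and Rps18 1369 and 4501. These 5 were thus within the first 5000 peaks of each replicate.

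Rps2 had 54.6, with rank 1472 in replicate 1 and 20052 in replicate 2. Rps10 had 43.6 (ranks 1987 and 4110) and Rps21 42.3 (ranks 4525 and 3059). For Rps21 the call of replicate 1 lay 418 bp upstream of the TSS, and within 250 bp of the optimal summit that replicate had only a call of rank 42681. In the conservative list the strongest Rps21 promoter call was also another one, upstream at -413 bp, with a signal of 12.8 (rank 14305). Rps3 (33.5), Rps15 (32.4), Rps29 (31.2) and Rps13 (28.6) followed. Each of these 4 ranked higher in replicate 2: Rps3 at 8807 against 17403, Rps15 at 6471 against 30807, Rps29 at 3620 against 10940 and Rps13 at 11703 against 19442.

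How far the libraries held the same promoters was read from ranks of the strongest call within 1 kb, which need not be the same summit in each list. Among the leading peaks of replicate 1, 61 members had a promoter peak, beside 24.9% of all genes, and among those of replicate 2, 52 members, beside 20.3%. In both, 47 members (58.8%) had one, beside 15.4% of all genes. In the full lists 70 members had a call in each replicate, with median ranks of 4003.5 and 5282.5. Spearman's rho between their ranks was 0.72, and it was 0.61 over the 9223 genes of any kind called in both. These are correlations across genes of 2 libraries that share a source, and genes are not independent replicates. In 41 of the 70 members (58.6%) the rank was higher in replicate 1, as in 57.5% of all genes.

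**Figure D2:**
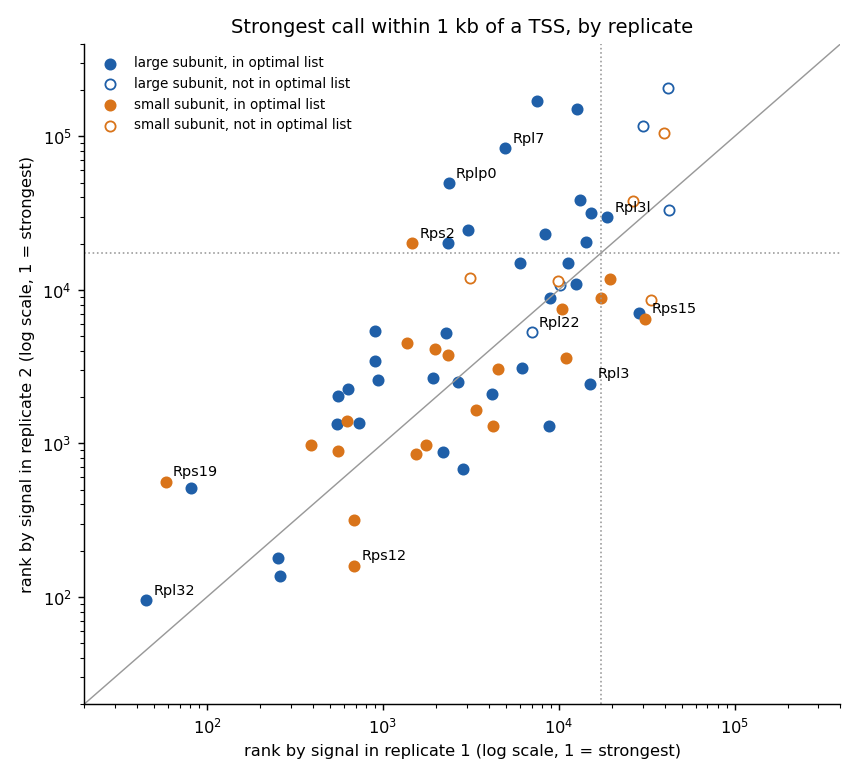
Rank by signal of the strongest call within 1 kb of a TSS in replicate 1 (x axis, log scale) and replicate 2 (y axis, log scale) for 66 members called in both, by subunit (colour) and optimal list (filled or open); the line marks equal ranks and the dotted lines rank 17372. Rpl7, Rplp0 and Rps2 lie far above the line, that is lower in replicate 2.

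Of the 60 members with an optimal promoter peak, 42 were among the leading peaks of both replicates. Another 13 were there in replicate 1 only, among them Rpl7, Rpl9, Rpl11, Rpl17, Rpl27a, Rpl35, Rpl36, Rpl37, Rpl38, Rplp0, Rplp1 and Rps2. Only in replicate 2 were Rpl24, Rps3, Rps13 and Rps15, and Rpl3l was in neither. The 2 IDR lists differed along this axis. The 9 members with a promoter peak in the optimal list only were 8 of these 13, among them Rpl7, Rpl9, Rpl17, Rpl35, Rpl36, Rplp0 and Rplp1, and Rpl3l. The 5 in the conservative list only, among them Rpl13, Rpl22, Rps9 and Rps20, were all among the leading peaks of both replicates. Per the file headers the replicates were called against different sets of control files; whether this bears on the ranks was not tested.

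The 20 members without an optimal promoter peak were not all without signal. In the pooled list Rpl22 had 41.4 (rank 4924), Rps20 37.9 (rank 6025), Rps9 35.7 (rank 6807) and Rpl13 28.3 (rank 10694), values that other members reached inside the optimal list. Rpl22 ranked 6999 in replicate 1 and 5300 in replicate 2, and Rps20 3147 and 12027. Rps9 ranked 9942 and 11480 and Rpl13 10105 and 10708. These 4 are among the 65 members with a promoter peak in either IDR list.

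Lower pooled values stood at Rps25 (23.8), Rps16 (18.5), Rpl6 (15.8), Rpl30 (14.8), Rpl15 (13.2), Rps24 (13.1), Rpl39 (12.1), Rpl28 (11.5) and Rpsa (11.3). Rps16, Rpl30 and Rpl15 had no call in replicate 2. Rpl14 was called in replicate 1 only (rank 28771) and Rpl37a in replicate 2 only (rank 93528). Rpl10l, Rpl39l and Rps4x had no call within 1 kb of a TSS in any list. Since the depth is unknown, no limit can be put on binding at these promoters.

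The paralogues that replace a general ribosomal protein in some tissues were compared with their partners. Rpl3l, which takes the place of Rpl3 in heart and skeletal muscle, had a weak call of 24.1 (rank 12280), with 12.8 (rank 18821) in replicate 1 and 8.56 (rank 29800) in replicate 2. Its summit lay in an intron, 155 bp upstream of an internal TSS, and not at the 5′ end of the gene. Rpl3 itself had 37.7 (rank 5945), with ranks 15134 and 2453. The reference TSSs of Rpl3l and Rps2 lie 7757 bp apart.

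Rps27l had the higher signal of its pair, 61.2 (ranks 2357 and 3764 in the replicates) beside 39.4 at Rps27 (ranks 10474 and 7465). Rpl10l and Rpl39l, paralogues used in male germ cells, had no call, beside 57.3 at Rpl10 and only a pooled call of 12.1 at Rpl39. Rpl22l1 had an optimal peak of 40.7, near the pooled 41.4 of Rpl22, and Rpl36al had none beside 36.8 at Rpl36a. On the X chromosome, Rpl10 and Rpl36a thus had a promoter peak and Rpl39 and Rps4x had none.

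Where the summit stood was measured from the nearest own TSS. The median offset was -6 bp (quartiles -49.25 and 61 bp, negative upstream) over the 60 members, and -51 bp (-170 and 48 bp) over all 4660 genes with a promoter peak. Of the members 40 (66.7%) had the summit within 100 bp and 27 (45%) within 50 bp, beside 44.2% and 25.1% of all genes. Upstream lay 33 summits and downstream 27, beside 3003 and 1642. The interval covered an own TSS in 54 members. By annotation 29 of the strongest summits fell in a UTR, 18 between genes and 13 in an intron. Members have up to 8 TSSs, and offsets are to the nearest.

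**Figure D3:**
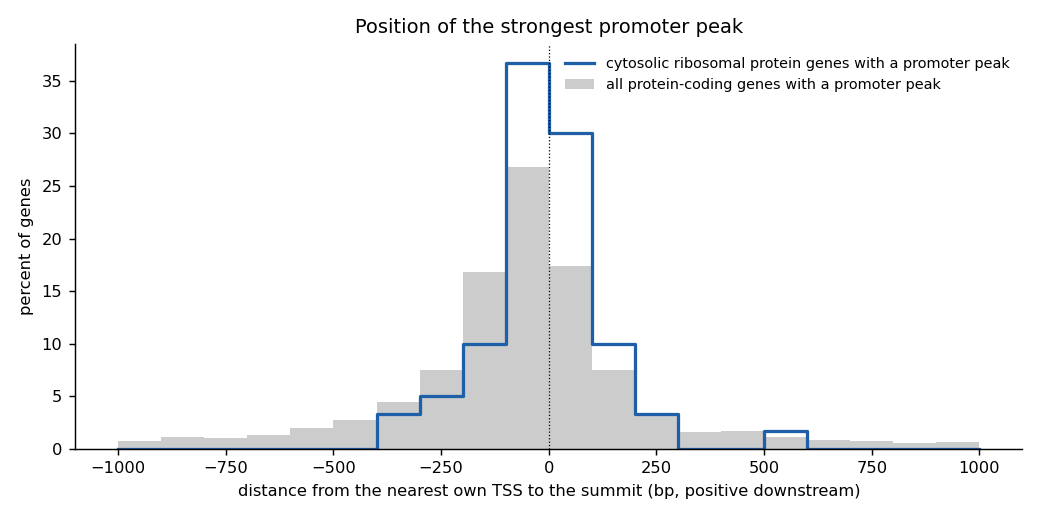
Distance from the nearest own TSS to the summit of the strongest promoter peak (x axis, bp, 100 bp bins) as percent of genes (y axis), for the 60 members (line) and the 4660 protein-coding genes with a promoter peak (grey bars). The members' summits are gathered next to the TSS, with 66.7% within 100 bp.

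Replicate summits lay a median of 41 bp apart over the 59 of these members called in both, and within 100 bp of each other in 42. They lay more than 500 bp apart in Rpl7, Rpl17, Rpl18 and Rpl36.

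Many of the 96 assigned peaks were neighbouring calls at 1 promoter. Of the 96, 80 were promoter peaks of the assigned gene and 16 lay farther than 1 kb. Counting calls within 1 kb whichever gene was nearest, 27 members (33.8%) had at least 2, beside 7.32% of all genes. Among genes with a promoter peak, these were 27 of the 60 members and 1600 of all 4660 genes. Neighbouring summits stood a median of 204 bp apart, and the closest 199 bp, less than the width of a call. The 29 weaker calls had a median signal of 29.6. At Rpl10a the second call had 59.6, at Rpl26 54.1 and at Rpl34 50.6, while at Rps12 it had 10.9 and at Rps23 7.34. Joining summits within 500 bp left 68 sites in place of 96 peaks.

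Distal peaks were few: 9 members (11.2%) had one, beside 19.3% of all genes. The strongest was 84518 bp downstream of the TSS of Rps24, between genes (chromosome 14, summit at 24575285). Its signal was 68.1 (rank 1411), and it ranked 1667 in replicate 1 and 866 in replicate 2, while the Rps24 promoter itself had only a pooled call of 13.1. A second call of 9.50 lay beside it, at 84719 bp.

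Rpl29 had 3 distal peaks upstream, at 11054, 24010 and 22737 bp, with signals of 44.1, 33.9 and 32.9. Rpl3 had a distal peak of 48.1, 30184 bp downstream, stronger than its promoter peak, and another of 16.8 at 28789 bp. Those of Rps21 (41.9), Rps15 (30.8), Rpl27a (28.7) and Rpl31 (24.2 and 23.2) lay in introns of other genes, namely Cables2, Dazap1, St5, Tbc1d8 and Npas2. Of the 16 distal peaks, 11 lay between genes and 5 in introns of other genes.

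Ribosomal protein genes have many processed copies in the genome. The annotation has 294 pseudogenes with an Rpl or Rps symbol ending in -ps, and 0 of them had an optimal summit inside or within 1 kb. Among all 9940 processed pseudogenes 6 had a summit inside, so the 0 does not set the ribosomal copies apart. No such share was counted for summits within 1 kb. How reads that fit several copies were handled is not stated in the labels or headers.

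Other families of the same kind give a scale. Of the 78 genes of the mitochondrial ribosome 45 (57.7%) had a promoter peak, with a median signal of 39.9, and of 39 proteasome subunit genes 22 (56.4%), with a median of 31.1. Among the 1000 strongest peaks the mitochondrial family had 4 and the proteasome 3, beside the 14 of the cytosolic family. In both replicates 41.0% and 33.3% of these families were among the leading peaks, beside 58.8% of the cytosolic one. The differences between families were not tested.

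**Figure D4:**
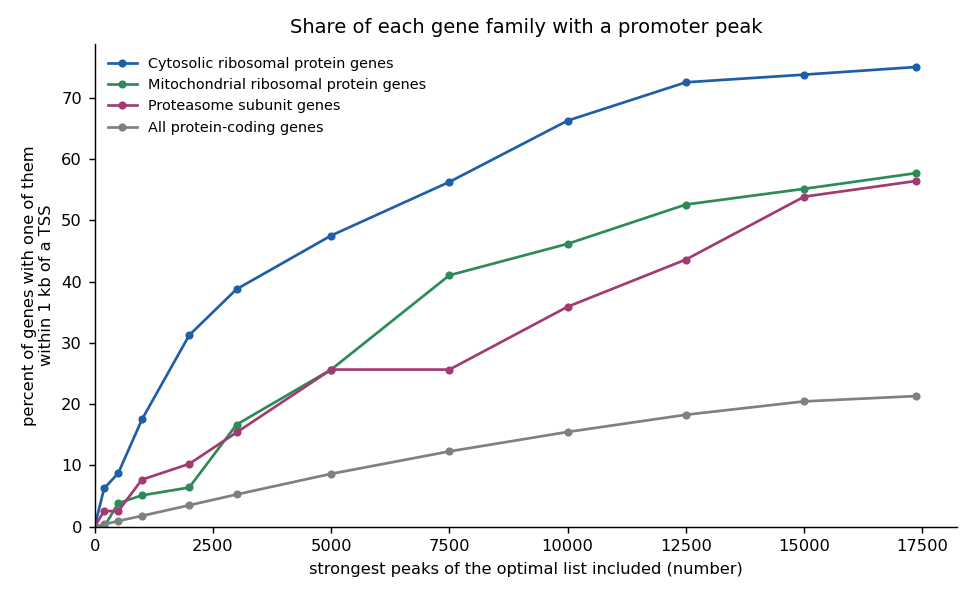
Percent of genes (y axis) with 1 of the strongest peaks of the optimal list within 1 kb of a TSS, against the number of strongest peaks included (x axis), for 80 cytosolic and 78 mitochondrial ribosomal protein genes, 39 proteasome subunit genes and 21853 protein-coding genes. At 5000 peaks the cytosolic family had reached 47.5%, both other families 25.6% and all genes 8.64%.

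Genes that work with the ribosome but fall outside the symbol rule were counted too. Of 7 further ribosomal genes 3 had a promoter peak: Rps3a1 at 143 (rank 101), Rack1, a scaffold on the small subunit, at 50.1, and Rpl22l1. Of 15 translation factors and associates known for TOP messenger RNAs 12 had one, led by the elongation factor Eef2 (75.7), Tpt1 (70.6) and the initiation factor Eif4b (65.5). Of 20 genes of ribosome biogenesis 11 had one, led by Nop58 (72.5), Pes1 (66.3) and Nop56 (58.7). All 3 lists stand above the 21.3% of all genes by share, without a test.

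The tissue label was checked on marker genes. All 6 heart muscle markers had assigned peaks, 90 in all, and all 4 endothelial markers, 23 in all. The 3 erythroid, 3 macrophage and 3 liver markers had 0, 1 of 3 fibroblast markers had 1 and 1 of 3 neuron markers had 2. A strong promoter peak was not limited to the ribosomal genes: the muscle gene Tnnt2 had 213 (rank 23).

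The letters of the promoters were described last, in the 300 bp from 250 bp before to 50 bp after 1 reference TSS per gene. The ETS letters CCGGAAG stood in 25 of 80 members (31.2%), beside 11.1% of all genes and 21.5% of genes with a promoter peak. They were in 21 of the 60 members with a promoter peak and 4 of the 20 without. The YY1 letters AANATGGC stood in 10 members (12.5%), beside 6.34% of all genes and 10.4% of genes with a promoter peak, and all 10 had a promoter peak (Rpl10, Rpl13a, Rpl18, Rpl23a, Rpl24, Rpl34, Rpl35a, Rps15a, Rps27 and Rps28). No member had both, but the share of all genes with both was not counted, so this does not set the members apart. A match is a description of letters and does not show that a factor binds.

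For SP, NFY and NRF1 letters the share of members was below that of genes with a promoter peak. The SP and KLF letters GGGCGG stood in 51.2% of members, beside 64.6% of genes with a promoter peak and 45.3% of all. For NFY (CCAAT) the shares were 31.2%, 39.8% and 38.6%, and for NRF1 (GCGCNTGCG) 11.2%, 13.3% and 8.71%. CRE (TGACGTCA) stood in 6.25%, 3.45% and 2.50%, and the MYC E-box (CACGTG) in 11.2%, 11.2% and 7.71%.

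Letters of factors known from heart muscle and its growth are given beside all genes and then genes with a promoter peak, without a test. MEF2 (CTANNNNTA) had 13.8% of members beside 18.8% and 14.2%, TEAD (GGAATG) 10% beside 13.03% and 12.02%, the AGATAA letters of GATA factors 8.75% beside 9.82% and 6.07%, AP-1 (TGANTCA) 5% beside 6.71% and 4.70%, and the E-box CAGCTG 6.25% beside 15.7% and 13.8%. For MEF2, TEAD, GATA and AP-1 the 95% exact (Clopper-Pearson) interval of the members' share held the share of all genes. For CAGCTG the interval lay below that share (2.06% to 13.99% beside 15.7%). For ETS it lay above (21.3% to 42.6% beside 11.1%), as it did for the TOP-like start described below (19.2% to 39.95% beside 18.3%). Beside genes with a promoter peak, the intervals for CAGCTG and ETS held the share (13.8% and 21.5%). That for the TOP-like start lay above it (18.9%). Such intervals treat genes as independent draws, and the members were chosen with earlier results known. They therefore describe the shares and test no difference. The TATAAA letters of the core promoter box, starting 40 to 20 bp before the TSS, stood in 0 of 80 members, with a 95% exact (Clopper-Pearson) upper bound of 4.51%, beside 2.48% of all genes. A TOP-like start, a C followed by at least 4 pyrimidines beginning within 5 bp of the TSS, stood in 23 members (28.7%), beside 18.3% of all genes. At any annotated TSS it stood in 45 members (56.2%), beside 33.0%, so that count depends on the TSS used.

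**Figure D5:**
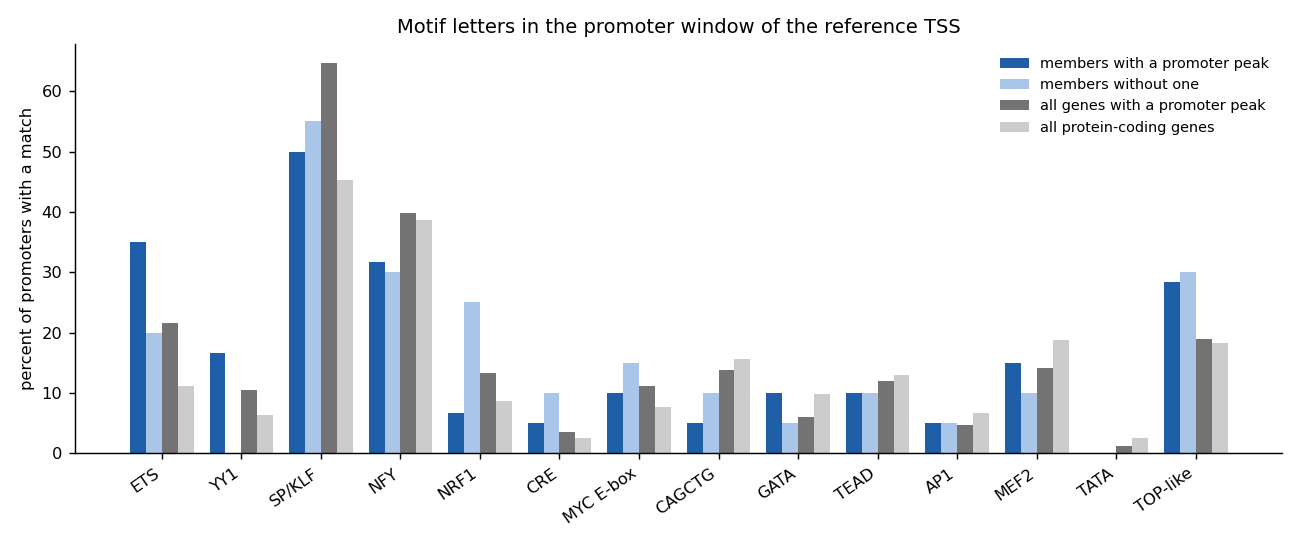
Percent of promoters (y axis) with at least 1 match to each motif (x axis) in the 300 bp window, for the 60 members with a promoter peak, the 20 members without, the 4660 genes with a promoter peak and all 21853 genes. ETS letters stood in 35% of members with a promoter peak, in 21.5% of all genes with one and in 11.1% of all genes.

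By base composition the members were ordinary in GC and high in CpG. The median GC content of the window was 55.5% in members and 55.7% in all genes, beside 61% in genes with a promoter peak. The ratio of observed to expected CpG was 0.84 in members, 0.81 in genes with a promoter peak and 0.56 in all. Members with and without a promoter peak had 0.85 and 0.83.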

How the data were processed

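EP300 ChIP-seq peaks of newborn mouse heart were read from 5 deposited lists on mm10. The authors called peaks on each replicate and on pooled reads and derived the optimal and conservative lists from these by IDR, per the file headers. Neither the aligner, the peak caller nor a threshold for IDR is named in the labels or headers. The deposited signal value is the authors' height over control, the deposited −log10 q is that of their caller, and the authors' score of the IDR lists was not used. Summits were placed on GENCODE M21 TSSs (54361) with Python 3.11.15, pandas 2.3.3, numpy 2.4.6 and SciPy 1.17.1. Sequence was read with samtools 1.23.1, and plots used matplotlib 3.10.9. Peaks on unplaced contigs and the mitochondrial genome were left out (17339 kept). Leading peaks of a replicate are its 17372 strongest. The assignment was tested on simulated data.

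Members and lists were chosen with earlier results of these data known. Named are the members, apart from some that are not reported here and enter the counts only, with full values for the 12 strongest, the 3 weakest, those with several or only distal peaks, paralogue pairs and X-linked members. Second calls at a promoter are mostly summarised. For related lists the 3 strongest are named.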

Additional observations from a re-analysis of the deposited data

How the results depend on the processing

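Of 70 values under other settings, 58 stayed within 1.5 times a count, within the replicate spread of a median or within the 95% interval of a share, and 12 moved. With peaks at or above the median signal only, 63 peaks were assigned in place of 96. The median percentile among those peaks alone was 78.1. In this shorter list the same rank gives a lower percentile than in the full list. With 1 reference TSS per gene the median offset was 4 bp in place of -6. With each replicate left out in turn, the members with an assigned peak numbered 51 to 60, assigned peaks 72 to 82 and members with a promoter peak 52 to 61. The median percentile was 83.6 to 84.9 and the median offset -13 to 0.5 bp. Of these values only the median percentile without replicate 2, 83.6, counted as moved. With 500 bp before the TSS the share of members was 63.75% for SP and KLF, 47.5% for NFY and 26.25% for MEF2. All genes had 49.5%, 55.9% and 36.8% there. The 200 bp at the summit exist only for the 60 members with a promoter peak. Their shares were 16.7% for NFY, 1.67% for CAGCTG, 3.33% for TEAD and 3.33% for MEF2. All genes with a promoter peak had 25.2%, 11.5%, 8.91% and 9.74% in that window. At any annotated TSS the TOP-like share was 56.25%. That setting and the union of the IDR lists (65 members) were added after seeing the data. The causes were not tested, beyond the longer or shorter window and the shorter list of peaks themselves. The RefSeq promoter table was void as an alternative, since it matched 60 members (75%, under 80%). No paired analysis was possible because both samples belong to 1 group. Both replicates share a biosample, their depth is unknown, and no expression data were used.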
